A study of Homo sapiens with 14 samples.

Results

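The 9 genes described here form the effector layer of the integrated stress response in U2OS cells, a human osteosarcoma line, after treatment with 9 compounds. They are ATF4, DDIT3 (which encodes CHOP), ATF3, CEBPB, PPP1R15A, TRIB3, CHAC1, DDIT4 and SESN2, and they were taken by symbol from the deposited tables of FPKM values (fragments scaled to gene length and library size). All 9 of 9 symbols were present among 28501 rows of the replicate 1 table and 25209 rows of the replicate 2 table. They were chosen by their place in the pathway with earlier results of these data known, so the FPKM values and their ratios to DMSO are among the values that selected them. Their levels are therefore given as a description, and a test is read only for genes outside the 9.

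The libraries were made from poly(A) RNA of cells treated with 2-PCPA (1 mM, 12 h), GSK343 (10 μM, 24 h) or rapamycin (5 μM, 24 h), each with 2 replicates. Single libraries came from cells given BIX-01294 (5 μM, 12 h), BRD4770 (20 μM, 24 h), GSK-J4 (20 μM, 12 h), SAHA (1 μM, 24 h), UNC1215 (50 μM, 24 h) or VPA (20 μM, 24 h). The control was DMSO at 0.5% by volume with 2 replicates, which makes 14 libraries in all. Nothing in the labels tells whether the replicates are independent cultures, and p-values therefore cover only the variation between these libraries, which may be technical. No time is stated for DMSO, and doses and times differ between compounds. The series title asks about H3K4 demethylation and autophagy, and 2-PCPA (tranylcypromine) is an inhibitor of the H3K4 demethylase KDM1A that also blocks monoamine oxidases. GSK343 inhibits the histone methyltransferase EZH2, rapamycin inhibits the growth kinase complex mTORC1, and BIX-01294 and BRD4770 are directed at the EHMT methyltransferases. GSK-J4 is an inhibitor of KDM6 demethylases, SAHA and VPA inhibit histone deacetylases, and UNC1215 is a ligand of the methyl-lysine reader L3MBTL3.

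In the integrated stress response, kinases that sense amino acid lack, misfolded protein in the endoplasmic reticulum (ER), heme lack or double-stranded RNA phosphorylate the translation factor eIF2. General translation then slows while the mRNA of ATF4 is translated more, so ATF4 protein can change without its mRNA. ATF4 pairs with C/EBP proteins and other leucine zipper factors and binds genes of amino acid supply as well as DDIT3, TRIB3, CHAC1, SESN2 and DDIT4. PPP1R15A (GADD34) returns eIF2 to its unphosphorylated state and closes the loop. RNA levels alone were measured here, so neither eIF2 phosphorylation nor ATF4 protein was analysed.

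Promoter sequences of the 4 genes with the widest range or the most contrasting profiles are shown because their levels parted between compounds: CHAC1 and DDIT4 on one side, DDIT3 and PPP1R15A on the other. RefSeq windows matched 9 of 9 genes with 15 start sites, and the 250 bases before each start were searched on both strands in the GRCh38.p14 build, which is not the hg19 build of the deposited values. Capitals mark a match in the orientation of the gene. The windows are CHAC1 at chr15:40953221-40953470 on the + strand, DDIT4 at chr10:72273674-72273923 on the + strand, PPP1R15A at chr19:48872171-48872420 on the + strand and DDIT3 at chr12:57520515-57520764 on the - strand.
CHAC1: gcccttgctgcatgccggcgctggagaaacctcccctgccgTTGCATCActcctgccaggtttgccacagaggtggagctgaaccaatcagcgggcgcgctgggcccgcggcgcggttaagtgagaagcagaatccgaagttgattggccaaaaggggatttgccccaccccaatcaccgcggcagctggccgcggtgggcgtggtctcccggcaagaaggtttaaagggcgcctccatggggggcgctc
DDIT4: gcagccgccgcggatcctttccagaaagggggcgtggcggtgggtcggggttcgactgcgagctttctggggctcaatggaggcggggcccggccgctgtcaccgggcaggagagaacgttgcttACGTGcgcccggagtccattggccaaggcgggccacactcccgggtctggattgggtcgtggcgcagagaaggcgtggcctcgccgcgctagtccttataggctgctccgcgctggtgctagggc
PPP1R15A: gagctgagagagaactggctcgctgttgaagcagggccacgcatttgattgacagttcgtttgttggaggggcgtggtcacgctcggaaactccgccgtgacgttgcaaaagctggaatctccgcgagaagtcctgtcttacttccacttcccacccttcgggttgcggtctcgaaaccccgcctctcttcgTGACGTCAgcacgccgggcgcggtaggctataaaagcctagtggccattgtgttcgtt
DDIT3: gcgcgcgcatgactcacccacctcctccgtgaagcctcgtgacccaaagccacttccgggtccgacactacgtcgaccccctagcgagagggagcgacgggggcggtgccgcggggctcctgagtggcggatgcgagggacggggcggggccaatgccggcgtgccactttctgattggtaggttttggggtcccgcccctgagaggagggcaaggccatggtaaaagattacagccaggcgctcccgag

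The C/EBP-ATF composite element, the class of site that ATF4 binds with a C/EBP partner, was searched as TGATGNAA. It was present in the CHAC1 window 209 to 202 bases before the start, where it reads TTGCATCA because the match lies on the other strand, and in 1 of the ATF3 windows 191 to 184 bases before the start. Of 35116 RefSeq windows of the same length, 3.14% held it. The cyclic AMP response element TGACGTCA, a site of ATF and CREB factors, stood in the PPP1R15A window 58 to 51 bases before the start and in 1.65% of all windows. The hypoxia response core ACGTG, the short core of sites bound by HIF factors, lay 125 to 121 bases before the DDIT4 start and also in the ATF4 windows, against 18.5% of all windows. The ER stress element, the site of ATF6, was in 0 of the 9 genes' windows and in 0.074% of all windows. The DDIT3 window held no exact match to these 4 letter strings. It does hold ccaatgccggcgtgccact, which differs from the ER stress element string only in its last base. Such near matches were not counted in any window. These matches describe letters in a window and are not evidence of binding.

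The libraries had 12045 to 13157 genes at 1 FPKM or more. Summed FPKM ran from 291956 in 2-PCPA to 531006 in SAHA in the replicate 1 table. In the replicate 2 table it ran from 689842 in 2-PCPA to 811753 in rapamycin. FPKM values hold no counts, so absolute depth is unknown. Relative to the DMSO library of each table, depth read from ratios of low FPKM values ran from 0.555 in BIX-01294 to 1.24 in SAHA. The 2-PCPA replicate 1 library stood apart: its median log2 ratio to DMSO over the tested genes was -0.42, against 0.01 in 2-PCPA replicate 2. In it 28.5% of 393 olfactory receptor genes, which this cell type should not use, were above 0, against 2.80% to 6.62% in the other replicate 1 libraries. Values for 2-PCPA are therefore given by replicate. The tables were made separately and hold different rows, so ratios were taken within a table and levels of both tables are only set side by side. Of the osteoblast and mesenchymal markers, SPARC (154 to 330 FPKM), COL1A1 (74.0 to 182 FPKM) and VIM were high in the replicate 1 libraries while SP7 was at 0 and COL1A2 reached 0.0987 FPKM at most. RUNX2 (0.629 to 5.27 FPKM) and ALPL (0 to 4.76 FPKM) were low there. BGLAP parted between the tables, at 0 in all replicate 1 libraries and at 41.7 to 50.9 FPKM in the replicate 2 libraries. The epithelial keratins KRT8 (271 to 734 FPKM) and KRT18 (193 to 427 FPKM) were also high, and CDH1, PTPRC and CD3E were below 1 FPKM. In bulk RNA, a change in all cells and a change in the number of responding cells cannot be told apart.

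**Figure D1:**
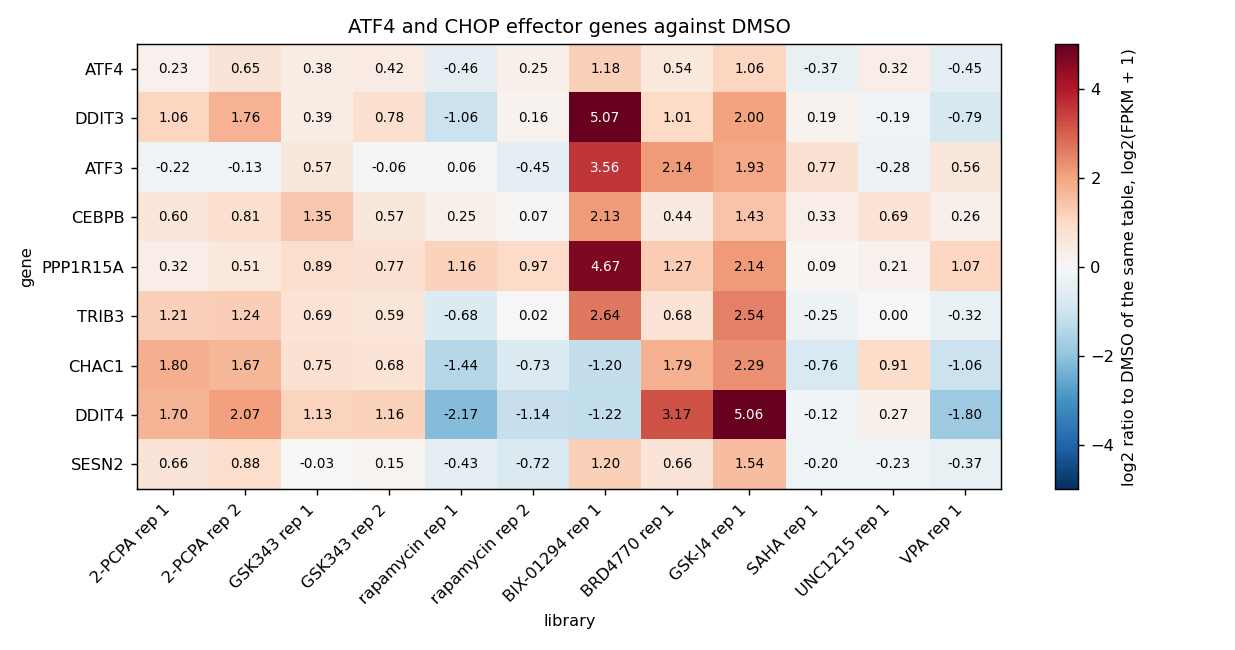
Log2 ratio to DMSO of the same table on the log2(FPKM + 1) scale for the 9 genes (rows) in the 12 treated libraries (columns), with the value printed in each cell and colour running from blue (lower than DMSO) to red (higher). BIX-01294 and GSK-J4 hold the darkest cells, DDIT3 at 5.07 and DDIT4 at 5.06, and DDIT4 and CHAC1 are blue in rapamycin, BIX-01294 and VPA.

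ATF4, the transcription factor at the head of the group, had the highest level of the 9 genes in every library but GSK-J4, where DDIT4 was above it, and the narrowest range over the replicate 1 libraries. It was at 338 and 475 FPKM in 2-PCPA, 374 and 405 FPKM in GSK343 and 209 and 360 FPKM in rapamycin, against 288 and 303 FPKM in DMSO. In the single libraries ATF4 was at 653 FPKM in BIX-01294, 602 in GSK-J4, 420 in BRD4770, 359 in UNC1215, 222 in SAHA and 211 in VPA, against 288 FPKM in DMSO of the same table. The highest replicate 1 level was 3.13 times the lowest, and 0 of the 9 gaps between neighbours in the order of levels went beyond the gene's spread, taken as a gap over 2 times the square root of 2 times its residual SD. Rapamycin replicates lay on either side of their DMSO libraries. Reads of ATF4 may be shared with 4 annotated ATF4 pseudogenes, so its level is uncertain in that respect.

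DDIT3 encodes CHOP, a C/EBP-family factor that dimerizes with other leucine zipper proteins and is tied to cell death after prolonged stress. It was at 354 FPKM in BIX-01294, 41.2 in GSK-J4, 20.3 in BRD4770, 11.1 in SAHA, 8.26 in UNC1215 and 5.12 in VPA, against 9.56 FPKM in DMSO of the same table. The BIX-01294 level was 37.0 times that of DMSO and the GSK-J4 level 4.31 times, and the steps from BIX-01294 to GSK-J4 and from GSK-J4 to 2-PCPA went beyond the spread. In 2-PCPA DDIT3 was at 21.0 and 32.1 FPKM, in GSK343 at 12.8 and 15.9 FPKM and in rapamycin at 4.08 and 9.94 FPKM, against 9.56 and 8.81 FPKM in DMSO. Within both tables DDIT3 was above DMSO in 2-PCPA and in GSK343. Of all genes tested, 11.5% were higher than DMSO in both replicates in 2-PCPA and 34.6% in GSK343, on ratios that were not centred. In rapamycin DDIT3 was below DMSO in replicate 1 and above it in replicate 2. In the annotation used here (GENCODE 29) DDIT3 overlaps MARS and MBD6 on the opposite strand, and strandedness is not stated for these libraries. On the same strand it overlaps AC022506.1 and MIR616. MARS was at 164 FPKM in GSK-J4, 100.0 in BIX-01294, 63.5 in VPA and 52.5 in rapamycin replicate 1, against 90.8 FPKM in DMSO. It was thus above DMSO in GSK-J4 and BIX-01294 and below it in VPA and in rapamycin replicate 1, as DDIT3 was. In the replicate 1 libraries of 2-PCPA (85.1 FPKM), GSK343 (84.5), BRD4770 (86.6) and SAHA (69.0) MARS was below DMSO while DDIT3 was above it. In UNC1215 MARS was at 103 FPKM, above DMSO, while DDIT3 was below it. Among the replicate 2 libraries MARS was at 124 FPKM in 2-PCPA and 110 in GSK343, against 100.0 FPKM in DMSO. It was above DMSO there, as DDIT3 was. In rapamycin replicate 2 MARS was at 83.3 FPKM, below DMSO, while DDIT3 was above it. MARS is itself in the list of ATF4 target genes described below. The part of MARS reads in the DDIT3 values was not tested. MBD6 was at 21.4 FPKM in BIX-01294 against 14.7 FPKM in DMSO.

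ATF3, a stress-induced repressor and activator of the same zipper class, followed DDIT3 only in part. It was at 114 FPKM in BIX-01294, 42.1 in BRD4770, 36.1 in GSK-J4, 15.6 in SAHA, 13.3 in VPA and 7.03 in UNC1215, against 8.76 FPKM in DMSO. The BIX-01294 level was 13.1 times that of DMSO, and the gaps from BIX-01294 to BRD4770 and from GSK-J4 to SAHA went beyond the spread. In 2-PCPA ATF3 was at 7.35 and 9.07 FPKM, in GSK343 at 13.5 and 9.61 FPKM and in rapamycin at 9.20 and 7.06 FPKM, against 8.76 and 10.02 FPKM in DMSO. Within a table, ATF3 in the 3 replicated compounds was at 0.704 to 1.54 times DMSO, and it was the 1 gene of the 9 that was lower than DMSO of its table in both 2-PCPA libraries.

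CEBPB, a C/EBP factor that can pair with ATF4 or CHOP, was at 97.2 FPKM in BIX-01294, 59.7 in GSK-J4, 35.2 in UNC1215, 29.6 in BRD4770, 27.3 in SAHA and 25.9 in VPA, against 21.5 FPKM in DMSO. The DMSO library of the replicate 1 table held the lowest CEBPB level of its 10 libraries. CEBPB was at 33.0 and 68.3 FPKM in 2-PCPA, 56.4 and 57.6 FPKM in GSK343 and 25.8 and 40.6 FPKM in rapamycin, against 21.5 and 38.6 FPKM in DMSO. As with ATF4, 0 of 9 neighbouring gaps went beyond the spread.

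PPP1R15A, the stress-induced phosphatase subunit that targets eIF2, had the second highest ratio to DMSO of the 9 genes in BIX-01294. It was at 416 FPKM in BIX-01294, 71.2 in GSK-J4, 38.5 in BRD4770, 33.3 in VPA, 17.9 in UNC1215 and 16.4 in SAHA, against 15.3 FPKM in DMSO. The BIX-01294 level was 27.1 times that of DMSO, and the gaps from BIX-01294 to GSK-J4 and from GSK-J4 to BRD4770 went beyond the spread. In rapamycin it was at 35.5 and 41.6 FPKM, in GSK343 at 29.3 and 36.1 FPKM and in 2-PCPA at 19.4 and 30.0 FPKM, against 15.3 and 20.8 FPKM in DMSO. In both tables rapamycin and GSK343 were above DMSO, and 2-PCPA was above DMSO of its own table by log2 ratios of 0.32 and 0.51. PPP1R15A was the 1 gene of the 9 with a level higher than DMSO by over 1 log2 in VPA.

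TRIB3 encodes a pseudokinase that binds ATF4 and AKT and damps the response. It was at 46.3 FPKM in BIX-01294, 43.0 in GSK-J4, 11.2 in BRD4770, 6.59 in UNC1215, 5.40 in SAHA and 5.08 in VPA, against 6.59 FPKM in DMSO. BIX-01294 and GSK-J4 were close together, at 7.02 and 6.53 times DMSO, and the gap below them to 2-PCPA was the only one beyond the spread. TRIB3 was at 16.6 and 19.2 FPKM in 2-PCPA, 11.3 and 11.9 FPKM in GSK343 and 3.75 and 7.69 FPKM in rapamycin, against 6.59 and 7.57 FPKM in DMSO. Of the replicated groups, 2-PCPA was highest in both tables, with GSK343 between it and DMSO.

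CHAC1, a glutathione-degrading enzyme that is induced through ATF4, went apart from DDIT3. It was at 41.4 FPKM in GSK-J4, 29.04 in BRD4770, 15.3 in UNC1215, 4.12 in SAHA, 3.18 in VPA and 2.78 in BIX-01294, against 7.68 FPKM in DMSO. In BIX-01294, where DDIT3 was highest, CHAC1 was at 0.363 times its DMSO level. CHAC1 was at 29.2 and 34.5 FPKM in 2-PCPA, 13.6 and 16.9 FPKM in GSK343 and 2.19 and 5.70 FPKM in rapamycin, against 7.68 and 10.1 FPKM in DMSO. In both tables the 4 groups stood, from the top, in the order 2-PCPA, GSK343, DMSO and rapamycin. How many of all genes have this order was not counted. In the order of levels the gaps from BRD4770 to UNC1215, GSK343 to DMSO and DMSO to SAHA went beyond the spread. CHAC1 was also the 1 gene of the 9 whose level in all 9 treatments of the replicate 1 table lay beyond the spread from DMSO. GSK343 (log2 ratio 0.75) and SAHA (-0.76) were just past its limit of 0.71. Such a count was not made over all genes.

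DDIT4 (REDD1) and SESN2 both restrain mTORC1, DDIT4 through the TSC complex and SESN2, a leucine sensor, through the GATOR complexes. DDIT4 had the widest range of the 9 genes, the highest replicate 1 level being 197 times the lowest. It was at 639 FPKM in GSK-J4, 171 in BRD4770, 22.1 in UNC1215, 16.6 in SAHA, 7.20 in BIX-01294 and 4.50 in VPA, against 18.1 FPKM in DMSO. The GSK-J4 level was 35.2 times and the BRD4770 level 9.44 times that of DMSO. The gaps from GSK-J4 to BRD4770, BRD4770 to 2-PCPA, GSK343 to UNC1215 and SAHA to BIX-01294 went beyond the spread. In 2-PCPA DDIT4 was at 61.1 and 77.7 FPKM, in GSK343 at 40.9 and 41.0 FPKM and in rapamycin at 3.25 and 7.53 FPKM, against 18.1 and 17.7 FPKM in DMSO. In both tables the 4 groups stood in the order seen for CHAC1. DDIT4-AS1, and for CEBPB the antisense gene CEBPB-AS1, overlap on the opposite strand, so reads of each pair cannot be told apart here.

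SESN2 had a narrower range than DDIT4, the highest replicate 1 level being 4.27 times the lowest. It was at 34.3 FPKM in GSK-J4, 27.0 in BIX-01294, 18.2 in BRD4770, 9.57 in SAHA, 9.41 in UNC1215 and 8.40 in VPA, against 11.2 FPKM in DMSO. Unlike DDIT4, SESN2 was above DMSO in BIX-01294. SESN2 was at 18.2 and 26.7 FPKM in 2-PCPA, 10.96 and 15.7 FPKM in GSK343 and 8.03 and 8.12 FPKM in rapamycin, against 11.2 and 14.1 FPKM in DMSO. In both tables rapamycin was below DMSO and 2-PCPA above it. GSK343 was below DMSO in replicate 1 and above it in replicate 2. The gap from 2-PCPA to DMSO in the order of levels went beyond the spread.

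**Figure D2:**
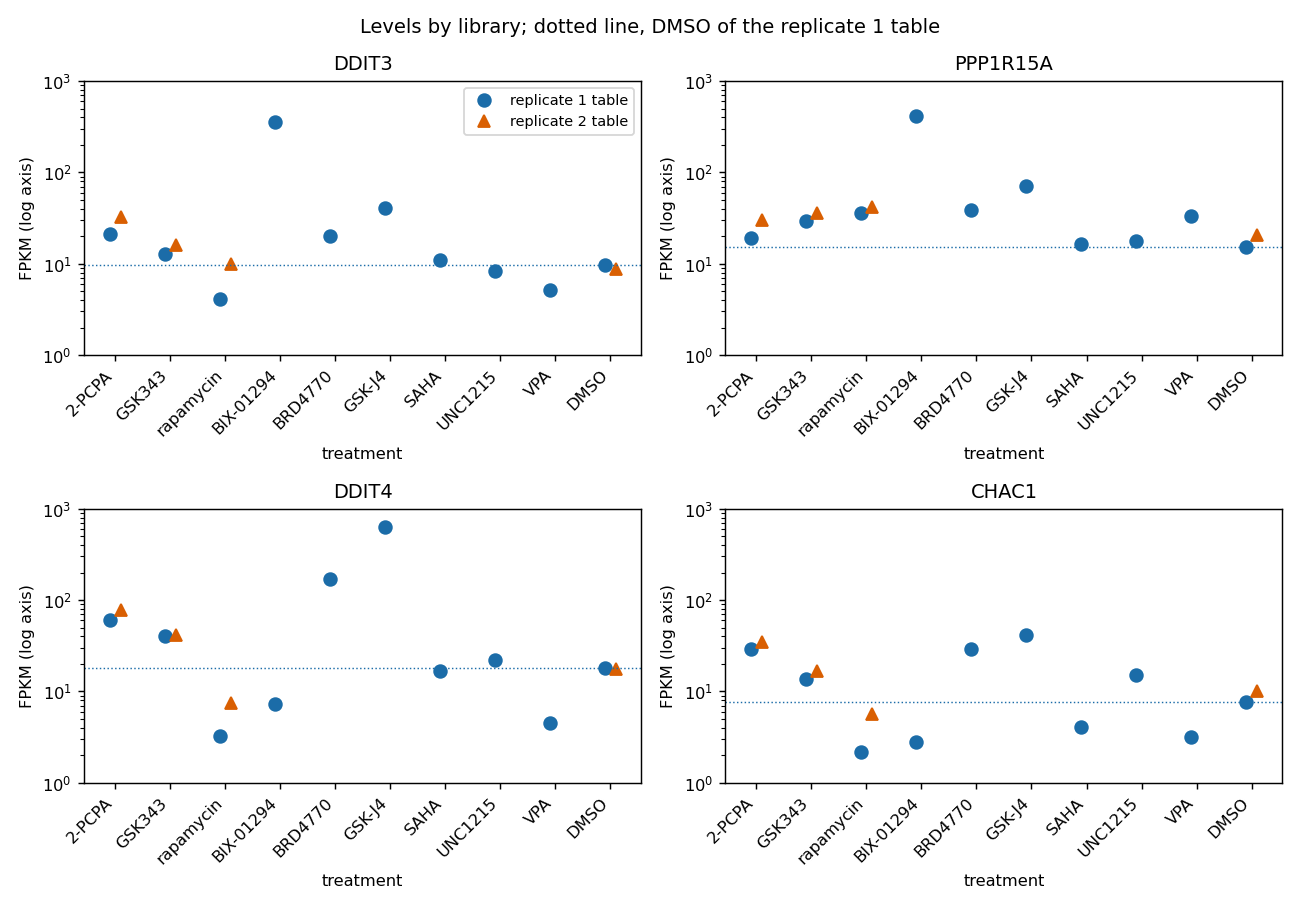
FPKM on a log axis for DDIT3, PPP1R15A, DDIT4 and CHAC1 in each library, with circles for the replicate 1 table, triangles for the replicate 2 table and a dotted line at DMSO replicate 1. BIX-01294 is the top point for DDIT3 (354 FPKM) and PPP1R15A (416 FPKM) but lies under the line for DDIT4 (7.20 FPKM) and CHAC1 (2.78 FPKM), where GSK-J4 is on top.

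Over all 9 genes, 15 of 81 gaps between neighbours in the order of the 10 replicate 1 libraries went beyond the spread. The residual SD behind this limit comes from the 4 replicated groups, while 6 of the 10 treatments have 1 library, so these gaps are a description and no test. They were not counted over all genes. BIX-01294 was highest for ATF4, DDIT3, ATF3, CEBPB, PPP1R15A and TRIB3, and GSK-J4 was highest for CHAC1, DDIT4 and SESN2. Across the 10 libraries, on the log2(FPKM + 1) scale, DDIT4 and CHAC1 had a Pearson r of 0.93 (Spearman rho 0.96), TRIB3 and SESN2 had 0.96 (0.88), ATF4 and TRIB3 had 0.93 (0.92), and DDIT3 and TRIB3 had 0.90 (0.94). DDIT3 and CHAC1 had 0.10 (0.48), and CHAC1 and PPP1R15A had -0.20 (-0.04). These are descriptions over 10 points that share 1 table, and the extreme libraries, BIX-01294 and GSK-J4, weigh heavily in them.

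Of genes outside the group, those most like the mean profile of the 9 genes over these 10 libraries were PRNP (r = 0.96), SLC3A2 (0.95), NFIL3 (0.95), SH2B3 (0.94) and IL6R (0.94). Without BIX-01294 and GSK-J4 the same values were 0.88, 0.89, 0.79, 0.82 and 0.84. SLC3A2, the heavy chain of several amino acid transporters, was at 415 FPKM in BIX-01294 and 285 FPKM in GSK-J4, against 107 FPKM in DMSO. Most like DDIT3 were TGDS (0.96), NAA25 (0.96) and FOXN2 (0.95), of which TGDS kept 0.91 without the 2 extreme libraries and FOXN2 had 0.64. Most like DDIT4 were GPT2 (0.97), FRMD4B (0.97) and ADM2 (0.94), with 0.91, 0.89 and 0.95 when GSK-J4 and BRD4770 were left out. GPT2, a mitochondrial alanine aminotransferase, was at 63.9 FPKM in GSK-J4 and 36.7 FPKM in BRD4770, against 15.2 FPKM in DMSO.

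In 2-PCPA the group stood mostly above DMSO. On the log2(FPKM + 1) scale, the fold change with its SE from 1 limma fit over the 8 replicated libraries was 1.88 ± 0.28 for DDIT4, 1.74 ± 0.25 for CHAC1, 1.41 ± 0.29 for DDIT3, 1.22 ± 0.24 for TRIB3, 0.77 ± 0.21 for SESN2 and 0.70 ± 0.27 for CEBPB (n = 2 each). ATF4 was at 0.44 ± 0.26, PPP1R15A at 0.41 ± 0.21 and ATF3 at -0.18 ± 0.24, which became 0.024 when each library was centred on its median. Of the 9 genes, 8 were higher than DMSO in both replicates, against 11.5% of 12603 genes, and 1 was lower in both, against 42.2%. By over 1 log2 in both replicates 4 of 9 were higher (DDIT3, DDIT4, CHAC1 and TRIB3), against 0.127% of all genes, and 0 were lower by as much, against 0.143%. Since the group was named with these ratios known, the shares describe it and test nothing. Here and below, shares in 2-PCPA come from ratios that were not centred. They thus include the low median of 2-PCPA replicate 1, -0.42 over the tested genes. In the replicate 2 library, without the library that stood apart, the log2 ratios were 2.07 for DDIT4, 1.67 for CHAC1, 1.76 for DDIT3 and 1.24 for TRIB3. The median over the 9 genes was 0.77 against -0.20 over all genes, and 0.97 after centring. In limma with Benjamini-Hochberg adjustment over all 12603 genes, 3 genes (0.0238%) passed and 0 of the 9 were among them, while 943 genes had an unadjusted p below 0.05. Without small RNA and clone rows 39 genes passed, 4 of the 9 among them, and leaving out 1 library gave 2 to 47 genes.

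**Figure D3:**
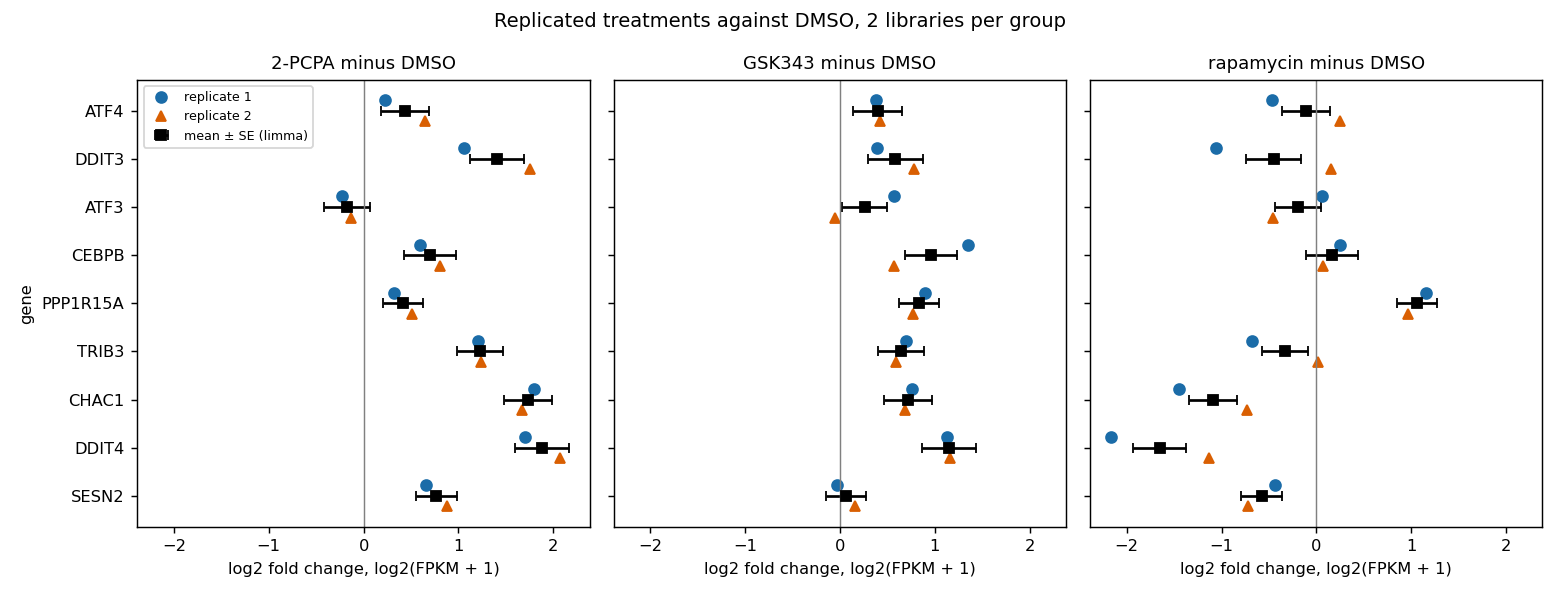
Log2 fold change against DMSO on the log2(FPKM + 1) scale for the 9 genes in 2-PCPA, GSK343 and rapamycin, with a circle and a triangle for the replicates and a black square with a bar for the limma mean and its SE (2 libraries per group). CHAC1 and DDIT4 lie right of 0 in 2-PCPA (1.74 and 1.88) and GSK343 (0.72 and 1.15) and left of 0 in rapamycin (-1.09 and -1.65), while PPP1R15A is at 1.06 in rapamycin.

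In rapamycin the log2 fold change was -1.65 ± 0.28 for DDIT4, -1.09 ± 0.25 for CHAC1 and -0.58 ± 0.21 for SESN2, and these 3 of 9 genes were lower than DMSO in both replicates, against 37.1% of all genes, a share near theirs. DDIT4 alone was lower by over 1 log2 in both replicates, against 0.0952% of all genes, and 0 of 9 were higher by as much, against 0.341%. PPP1R15A was higher, at 1.06 ± 0.21, and so was CEBPB, at 0.16 ± 0.27, which made 2 of 9 higher in both replicates against 25.5%, also near the share of all genes. DDIT3 (-0.45 ± 0.29), TRIB3 (-0.33 ± 0.24), ATF3 (-0.19 ± 0.24) and ATF4 (-0.11 ± 0.26) had replicates on both sides of DMSO. In the same fit 0 of the 9 genes and 2 of all genes (0.0159%) passed, with 814 at an unadjusted p below 0.05, and without small RNA and clone rows 3 of the 9 and 68 of all genes did. The median over the 9 genes was -0.33 against -0.05 over all genes, and by replicate it was -0.46 in replicate 1 and 0.021 in replicate 2.

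In GSK343 most of the group stood above DMSO. The log2 fold change was 1.15 ± 0.28 for DDIT4, 0.96 ± 0.27 for CEBPB, 0.83 ± 0.21 for PPP1R15A, 0.72 ± 0.25 for CHAC1, 0.64 ± 0.24 for TRIB3, 0.58 ± 0.29 for DDIT3 and 0.40 ± 0.26 for ATF4. These 7 of 9 were higher than DMSO in both replicates, against 34.6% of all genes, and 0 of 9 were lower in both, against 26.7%. DDIT4 alone was higher by over 1 log2 in both, against 0.309%. In the other direction 0 of 9 were lower by over 1 log2 in both, against 0.0635%. ATF3 (0.26 ± 0.24) and SESN2 (0.06 ± 0.21) had replicates on both sides of DMSO. Of all genes 2 (0.0159%) passed, with 532 at an unadjusted p below 0.05, and 0 of the 9 were among those that passed. Without small RNA and clone rows 47 genes passed, again with 0 of the 9. The median of the 9 was 0.64 against 0.03 over all genes. GSK343, 2-PCPA and rapamycin were set against the same DMSO libraries, so the comparisons share their controls.

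In the direct comparison of 2-PCPA with rapamycin the fold changes use no DMSO library. Their SE and p-values come from the same fit over 8 libraries, DMSO included. Times differed, with 12 h for 2-PCPA and 24 h for rapamycin. The log2 difference was 3.54 ± 0.28 for DDIT4, 2.83 ± 0.25 for CHAC1, 1.86 ± 0.29 for DDIT3, 1.55 ± 0.24 for TRIB3 and 1.35 ± 0.21 for SESN2, all 5 by over 1 log2 in both replicates, against 0.325% of all genes. None of the 9 (0 of 9) was lower in 2-PCPA by as much, against 0.341%. ATF4 (0.55 ± 0.26) and CEBPB (0.54 ± 0.27) were smaller, ATF3 was at 0.02 ± 0.24, and PPP1R15A was lower in 2-PCPA at -0.65 ± 0.21. Of the 9 genes, 7 were higher in 2-PCPA in both replicates, against 15.3% of all genes, and 1 was lower in both, against 37%. These shares too include the low median of 2-PCPA replicate 1, as ratios were not centred. DDIT4 and CHAC1 were 2 of the 6 genes (0.0476% of those tested) at an adjusted p below 0.05 in limma, which is not read as a test because the genes were chosen with such values known. Without small RNA and clone rows 218 genes passed, 5 of the 9 among them, and with no replicate block 1 gene and 0 of the 9.

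In BIX-01294 7 of the 9 genes were higher than DMSO by over 1 log2, against 9.97% of 12804 genes, and DDIT4 and CHAC1 were the 2 that were lower by as much, against 6.04%, though with a pseudocount of 5 in place of 1 none (0) was. The log2 ratios were 5.07 for DDIT3, 4.67 for PPP1R15A, 3.56 for ATF3, 2.64 for TRIB3, 2.13 for CEBPB, 1.20 for SESN2, 1.18 for ATF4, -1.20 for CHAC1 and -1.22 for DDIT4. There is 1 library, with no replicate check and the lowest relative depth of its table, 0.555, and all 6 single libraries are set against the same DMSO library. The part of depth in these values was not tested.

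In GSK-J4 9 of 9 genes were higher than DMSO by over 1 log2, against 8.92% of all genes, and 0 were lower by as much, against 5.96%. The ratios ran from 1.06 for ATF4 to 5.06 for DDIT4, with TRIB3 at 2.54, CHAC1 at 2.29, PPP1R15A at 2.14, DDIT3 at 2.00 and ATF3 at 1.93. In BRD4770 5 of 9 were, against 5.94%: DDIT4 at 3.17, ATF3 at 2.14, CHAC1 at 1.79, PPP1R15A at 1.27 and DDIT3 at 1.01, with TRIB3 at 0.68 and ATF4 at 0.54 outside the count, and 0 were lower, against 4.84%. DDIT3, at 1.01, was just inside the threshold of 1 log2 and TRIB3 the nearest outside it. BIX-01294 and BRD4770, both directed at EHMT enzymes, stood on opposite sides of DMSO for DDIT4 and CHAC1, at 5 μM for 12 h and 20 μM for 24 h. Their doses and times differ, and no comparison is made.

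SAHA, UNC1215 and VPA left most of the group near DMSO. In SAHA 0 of 9 genes were higher (7.79% of all genes) and 0 were lower (3.83%) by over 1 log2, with ratios from -0.76 for CHAC1 to 0.77 for ATF3. In UNC1215 0 of 9 were higher (1.8%) and 0 lower (1.26%), with CHAC1 at 0.91 and CEBPB at 0.69 the largest. In VPA PPP1R15A was higher at 1.07 (2.81% of all genes were), and DDIT4 at -1.80 and CHAC1 at -1.06 were lower (1.59%). With a pseudocount of 5 these counts were 0 higher and 1 lower. The median over the 9 genes was -0.12 in SAHA, 0.21 in UNC1215 and -0.37 in VPA, against 0.05, 0.04 and 0.01 over all genes.

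A wider list of 31 tested ATF4 target genes, which encode amino acid synthesis enzymes, transporters, tRNA synthetases and secreted stress signals, lay mostly above DMSO in 2-PCPA and below it in rapamycin. The list was drawn up with earlier results known. In 2-PCPA 19 of 31 were higher than DMSO in both replicates (11.5% of all genes were) and 0 lower (42.2%), on ratios that were not centred. Their median was 0.32 against -0.20 over all genes, and by replicate it was 0.095 and 0.56. In rapamycin 1 was higher (25.5%) and 19 lower (37.1%), with a median of -0.47 against -0.05, which was -0.71 in replicate 1 and -0.12 in replicate 2. In GSK343 12 were higher, near the 34.6% of all genes, and 0 lower (26.7%), with a median of 0.05 against 0.03. None of these passed in limma over all genes against DMSO, where 10 (2-PCPA, higher), 9 (rapamycin, lower) and 1 (GSK343, higher) had an unadjusted p below 0.05. The largest values in 2-PCPA were those of FGF21, GDF15, CTH and ADM2. FGF21, a secreted metabolic hormone, was at 5.57 and 11.7 FPKM in 2-PCPA, against 2.24 and 3.09 FPKM in DMSO (log2 fold change 1.32 ± 0.25, adjusted p = 0.537 in limma). GDF15, a stress-induced secreted factor, was at 3.28 and 6.55 FPKM in 2-PCPA, against 1.40 and 1.44 FPKM in DMSO (1.23 ± 0.35, adjusted p = 0.592 in limma).

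Set directly against rapamycin, 30 of 31 of these target genes were higher in 2-PCPA in both replicates (15.3% of all genes) and 0 lower (37%). The ratios were not centred, and the median was 0.73 against -0.14 over all genes. FGF21 was the 1 that passed in limma (adjusted p = 0.00495). This is not read as a test, because the list was drawn up with earlier results known. FGF21 was at 5.57 and 11.7 FPKM in 2-PCPA, while in rapamycin it was listed at 0 and at 0.575 FPKM, so no fold is given. PSAT1 and PSPH, enzymes of serine synthesis, had the next largest values in rapamycin against DMSO: PSAT1 was at 10.9 and 23.6 FPKM in rapamycin, against 38.1 and 28.2 FPKM in DMSO, and did not pass (adjusted p = 0.731 in limma).

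In the GSK-J4 single library 19 of the 31 target genes were higher by over 1 log2 (8.92% of all genes were) and 0 lower (5.96%), with a median of 1.12 against 0.00 over all genes. In BIX-01294 5 were higher (9.97%) and 1 lower (6.04%), with a median of 0.23 against 0.06 over all genes. The 9 effectors had medians of 2.00 in GSK-J4 and 2.13 in BIX-01294, and the difference between the lists was not tested. GDF15 was at 28.3 FPKM in BIX-01294 and 15.1 FPKM in GSK-J4, against 1.40 FPKM in DMSO. CTH, an enzyme of cysteine synthesis, was at 17.0 FPKM in GSK-J4 and 9.17 FPKM in BRD4770, against 2.36 FPKM in DMSO. In SAHA 6 of 31 were lower by over 1 log2 (3.83% of all genes) and 1 higher (7.79%), with a median of -0.47. In VPA 6 were lower (1.59%) and 0 higher (2.81%), with a median of -0.61. The stress protein gene NUPR1 was at 9.27 FPKM in SAHA against 64.0 FPKM in DMSO, and ASNS, asparagine synthetase, at 22.4 FPKM in VPA against 54.9 FPKM in DMSO.

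Target genes of other pathways known to reach some of the 9 effectors also stood apart from DMSO in these libraries. Of 12 hypoxia target genes, 12 were higher than DMSO by over 1 log2 in BRD4770 (median 2.32; 5.94% of all genes were) and 12 in GSK-J4 (median 3.03; 8.92%). In BIX-01294 2 were higher (9.97%) and 1 lower (6.04%), with a median of 0.44. The median of all genes was -0.01, 0.00 and 0.06 in BRD4770, GSK-J4 and BIX-01294. NDRG1 was at 857 FPKM in GSK-J4 and 267 FPKM in BRD4770, against 30.1 FPKM in DMSO. CA9, carbonic anhydrase IX, was at 25.9 FPKM in GSK-J4 and 36.1 FPKM in BRD4770, against 0.609 FPKM in DMSO. These were the libraries in which DDIT4, itself a known hypoxia target, was highest, and the part of hypoxia genes in that was not tested.

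Of 12 immediate early genes, which growth factor and stress kinases switch on within minutes, 12 were higher by over 1 log2 in BIX-01294 (median 2.68), 4 in BRD4770, 3 in GSK-J4 (with 1 lower) and 5 in SAHA. Of all genes 9.97%, 5.94%, 8.92% and 7.79% were higher by as much in these libraries, in the same order. EGR1 was at 263 FPKM in BIX-01294, against 6.49 FPKM in DMSO, and JUNB at 117 FPKM, against 8.78 FPKM. In rapamycin 8 of 11 tested were higher in both replicates (25.5% of all genes) and 0 lower (37.1%), with a median of 0.52, and 0 passed in limma, with 5 at an unadjusted p below 0.05. BIX-01294 was also where ATF3, PPP1R15A and DDIT3 were highest, and the part of immediate early genes in that was not tested. Zipper factors that can pair with ATF4, CHOP or ATF3 were higher by over 1 log2 in 12 of 20 cases in BIX-01294 (median 1.13), against 9.97% of all genes, and 8 of 20 in GSK-J4 (median 0.69), against 8.92%. FOS, JUN and JUNB are in both this list and the immediate early list, so the counts are not separate. CEBPG is also in the ATF4 target list. MAFF was at 128 FPKM in BIX-01294, 49.4 in BRD4770 and 42.8 in GSK-J4, against 4.01 FPKM in DMSO.

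Genes linked to CHOP in cell death and oxidative folding numbered 7 tested. Of these, 4 were higher by over 1 log2 in BIX-01294 (median 1.95; 9.97% of all genes were), 4 in GSK-J4 (median 1.30; 8.92%) and 2 in BRD4770 (median 0.89; 5.94%). In rapamycin the log2 fold change of DDIT3 was -0.45, from -1.06 and 0.16 in the replicates. There 5 of 7 were higher in both replicates (25.5% of all genes) and 0 lower (37.1%), with a median of 0.32. In 2-PCPA, where DDIT3 was at 1.41, 3 were higher (11.5%) and 0 lower (42.2%), with a median of 0.12. In GSK343, where DDIT3 was at 0.58, 6 were higher (34.6%) and 0 lower (26.7%), also with a median of 0.12. In limma 0 passed in these compounds, with 1, 2 and 1 at an unadjusted p below 0.05 in rapamycin, 2-PCPA and GSK343. GADD45A was at 806 FPKM in BIX-01294 and 125 FPKM in BRD4770, against 56.4 FPKM in DMSO. TNFRSF10B, which encodes the death receptor DR5, was at 90.1 FPKM in BIX-01294 and 42.1 FPKM in BRD4770, against 20.9 FPKM in DMSO. ERO1L, an ER oxidase that is also a hypoxia gene, was at 295 FPKM in GSK-J4 and 154 FPKM in BRD4770, against 43.0 FPKM in DMSO.

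ER chaperones and genes of the XBP1 and ATF6 arms, the other branches of the unfolded protein response, had medians below that of all genes in all 6 single libraries, whether or not the 9 effectors were high. Of 17, 1 was higher and 1 lower by over 1 log2 in BIX-01294 (median -0.01), against 9.97% and 6.04% of all genes. In BRD4770 the counts were 1 and 1 (median -0.40), against 5.94% and 4.84%. In GSK-J4 they were 2 and 3 (median -0.35), against 8.92% and 5.96%. The medians were -0.16 in SAHA, -0.05 in UNC1215 and -0.25 in VPA, and that of all genes lay between -0.01 and 0.06. HSPA5, the chaperone BiP, was at 85.8 FPKM in BRD4770 against 168 FPKM in DMSO. HERPUD1 was at 57.9 FPKM in GSK-J4 against 22.1 FPKM in DMSO, while MANF was at 37.1 FPKM in GSK-J4 against 90.8 FPKM in DMSO. In 2-PCPA 3 of 18 tested were higher in both replicates (11.5% of all genes) and 5 lower (42.2%), on ratios that were not centred. Their median was -0.19 against -0.20 over all genes, and 0 passed in limma.

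The eIF2 kinases, phosphatase partners and eIF2 and eIF2B subunits had 19 tested members and medians from -0.31 in VPA to 0.17 in BIX-01294 in the single libraries. EIF2AK3, the ER-resident kinase PERK, was at 15.2 FPKM in BIX-01294 against 5.03 FPKM in DMSO, and PPP1R15B, the constitutive counterpart of PPP1R15A, at 26.5 FPKM in BIX-01294 against 8.75 FPKM in DMSO. In rapamycin 15 of 19 were lower in both replicates (37.1% of all genes) and 1 higher (25.5%), with a median of -0.29 against -0.05 over all genes, and 0 passed in limma, with 1 at an unadjusted p below 0.05. The 13 p53 target genes had medians of 0.59 in BIX-01294 and 0.26 in GSK-J4, with CDKN1A, the cell cycle inhibitor p21, at 244 FPKM in BIX-01294 against 57.9 FPKM in DMSO. This list shares GDF15 with the ATF4 target list and BBC3 with the CHOP-linked list. The 18 tested genes of mTOR complexes, TSC and other sestrins had list medians of -0.13 in BIX-01294 and 0.02 in GSK-J4, against 0.06 and 0.00 over all genes. Single members went both ways: in GSK-J4 RPTOR, the mTORC1 subunit raptor, was at a log2 ratio of 1.47, WDR59 at 1.24 and SESN3 at -1.46.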

How the data were processed

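The authors deposited FPKM values per gene in 2 tables, of 10 and 4 libraries. Per the submitters' processing notes, FastQC, cutadapt, TopHat2 and the hg19 build were used, with no versions. Per the labels' protocols, mRNA was purified and converted with a ThruPLEX kit. What computed FPKM from which annotation, and whether reads are stranded, is not given in the sources used here.

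The 1 row called unknown was dropped, and 0 columns of sample values stayed unused. Replicate number equals table, so ratios were formed inside each table, on log2(FPKM + 1), which understates fold changes of low genes. The 12603 genes averaging 1 FPKM or more in the 8 libraries of 2-PCPA, GSK343, rapamycin and DMSO entered 1 limma 3.58.1 fit (R 4.3.3) with the replicate number as block and an eBayes trend (residual df 3, prior df 5.42). P-values were adjusted by Benjamini-Hochberg over all genes, with a threshold of 0.05. Same-numbered libraries deviated together, with correlations of 0.710 to 0.784 over 6 pairs, which a difference between the tables alone would also give. All 9 members passed the filter. For single libraries, 12804 genes with such a mean in the first table were used, and ratios past 1 log2 were counted.

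The 9 genes and the other lists were chosen with earlier results of these data known. Of each list, genes were named for passing the test or by size of change among those moving alike in both replicates. In single libraries, genes of the ATF4 target and ER lists were named by size, and those of other lists were picked after their values were seen. Some genes these rules pick were left out for length. Genes like a profile were ranked by Pearson r. The fit was tested on simulated data.

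Alternatives were pseudocounts of 0.1 and 5, no filter, no replicate block, median centring, no small RNA or clone rows, and each of the 8 libraries left out. Overlaps come from GENCODE 29 and promoter sequences from RefSeq (GRCh38.p14).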

Additional observations from a re-analysis of the deposited data

How the results depend on the processing

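Of 36 member values, 5 changed sign in at least 1 alternative. Over 14 alternatives these gave 504 values. Of them 438 stayed the same or moved by less than the SD between the fold changes of the 2 replicates. A further 58 moved more and 8 changed sign. The 438 include values that could not move. Dropping the filter, the replicate block or the small RNA and clone rows leaves a gene's fold change as it is. Leaving out a library outside the comparison does so too. The 438 are therefore no measure of stability. ATF3 in 2-PCPA against DMSO was 0.024 with median centring, and with 1 library left out it ran from -0.41 to 0.060, the last without 2-PCPA replicate 1. In rapamycin against DMSO, ATF4 ran from -0.39 to 0.17, being 0.17 without rapamycin replicate 1 and 0.088 without DMSO replicate 1, and TRIB3 from -0.69 to 0.034, the last without rapamycin replicate 1. SESN2 in GSK343 ran from -0.037, without GSK343 replicate 2, to 0.16, and ATF3 in 2-PCPA against rapamycin from -0.22 to 0.25, being -0.22 without 2-PCPA replicate 2 and -0.15 without rapamycin replicate 2.

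Counts of genes that passed, in the order 2-PCPA, rapamycin and GSK343 against DMSO and 2-PCPA against rapamycin, were 3, 2, 2 and 6. They were 0, 0 and 0 against DMSO with a pseudocount of 0.1, and 1, 0 and 1 with a pseudocount of 5. With no filter they were 1, 0, 0 and 2, and with no replicate block 1, 0, 0 and 1. Median centring gave 5 for rapamycin, 0 for GSK343 and 22 for 2-PCPA against rapamycin. Without small RNA and clone rows, 368 of the tested rows, they were 39, 68, 47 and 218, and leaving out 1 library gave 2 to 47, 0 to 42, 0 to 44 and 1 to 49. The cause of these differences was not tested. Same-numbered libraries deviated together, but replicate number equals table, so this does not show that cultures were paired. The values with no replicate block are those of the unpaired fit.

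Without small RNA and clone rows, members that passed were 4 in 2-PCPA (DDIT3, DDIT4, CHAC1 and TRIB3), 3 in rapamycin (DDIT4 and CHAC1 lower, PPP1R15A higher), 0 in GSK343 and 5 in 2-PCPA against rapamycin. In this last comparison the count of 2 members became 1 with no filter, 0 with no replicate block, 3 with median centring (SESN2 added) and 0 to 2 with 1 library left out. The median of the 9 genes was 0.97 in 2-PCPA with centring and 0.64 to 0.97 with 1 library left out, -0.43 to -0.02 in rapamycin, and 0.46 in GSK343 with a pseudocount of 5 and 0.47 to 0.81 with 1 library left out. In 2-PCPA against rapamycin it was 1.44 and 1.05 with pseudocounts of 0.1 and 5, 1.50 with centring and 1.13 to 1.47 with 1 library left out. A group left with 1 library was assumed to vary like the others.

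With a pseudocount of 5 in the single libraries, members lower by over 1 log2 in BIX-01294 numbered 0 (2 with a pseudocount of 1), members higher in VPA 0 (1) and members lower in VPA 1 (2). Depth limits these values only to the extent that FPKM shows it, and single libraries have no replicate check.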
